A study of Danio rerio with 7 samples.

Results

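The alpha and beta crystallins are described here across 7 pools of zebrafish hearts. The set names 10 genes, *cryaa*, *cryaba* and *cryabb* of the alpha family and *cryba1b*, *cryba1l1*, *cryba2a*, *cryba2b*, *cryba4*, *crybb1* and *crybb3* of the beta family. They were chosen by symbol after their levels in these same libraries had been seen, so the differences between the groups are given for them as a description, and the one count of members past a test's threshold is printed with nothing read from it. Of the 10, 9 were matched to an Ensembl gene ID among the 33737 IDs counted, 21939 of which were paired with a symbol.

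Crystallins are the proteins that fill the fibre cells of the vertebrate lens and give it its transparency and refractive power. Alpha crystallins belong to the small heat shock protein family and act as chaperones that keep other proteins from aggregating. Beta and gamma crystallins form a separate structural family built from Greek key motifs, and beta crystallins, which assemble into oligomers, are divided into an acidic (A) and a basic (B) branch. In zebrafish, *cryaa*, *cryaba* and the beta crystallins listed here are known mainly from the lens, whereas *cryabb* is also expressed in other tissues.

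The hearts came from embryos at 96 hpf (hours post fertilization) that carried *Tg(cmlc2::gfp)*, a transgene that labels cardiomyocytes with green fluorescent protein. *cora* pools were homozygous for *stl325*, a premature stop in *taf5*, the gene of a component of the general transcription factor TFIID. Control pools came from unaffected clutchmates, which the labels call WT and which may include heterozygous carriers. There were 4 *cora* libraries, numbered 1 to 4, and 3 control libraries, of which one (control U below) carries no number; each library was a pool of many hearts, and nothing states whether pools came from separate crosses.

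The libraries held 21474488 to 32037220 reads assigned to genes. Control 1 stood apart, with 33.7% of its counts on the mitochondrial chromosome against 16.8% to 21.8% in the other libraries. *taf5* was at 5.10 to 8.83 normalised CPM in the control and at 1.97 to 4.56 in the *cora* libraries, without overlap. It was not called in the fit over all genes (log2 fold change -0.94, standard error 0.38, edgeR adjusted p = 0.232). Normalised CPM is the read count relative to the reads counted in the library (CPM), after scaling the libraries to each other by TMM (trimmed mean of M values). The sample titles name zebrafish embryos, whereas the study's paper describes pools of hearts, and the pools are called hearts here after the paper. The 11 matched cardiomyocyte genes were all detected in every library except *bmp10*, at 0 in control 1. Their summed level was 325, 3976 and 1615 normalised CPM in control 1, 3 and U and 2227, 375, 1427 and 526 in *cora* 1 to 4, so it overlapped between the groups and was lowest in control 1. Genes of the epidermis, skeletal muscle, neurons and photoreceptors were also detected in all 7 libraries, and their levels are given with the crystallins. Epidermal genes summed higher than cardiomyocyte genes in every library. Their sums were 10917 to 37751 normalised CPM in the controls and 21164 to 31741 in the *cora* pools. Detection of cardiomyocyte genes thus does not show how much of each pool was heart tissue.

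The members are spread over the genome. On the Zv9 build, which the files use, *cryaa* (ENSDARG00000053502) lies on chromosome 1 from 28027491 to 28031533, the chromosome that also carries *taf5*. *cryaba* (ENSDARG00000042621) lies on chromosome 15 from 17063601 to 17068283, and *crybb3* (ENSDARG00000041301) on chromosome 5 from 7628609 to 7647599. *cryba1b* (ENSDARG00000053875) occupies 38020624 to 38029549 on chromosome 21, and *cryba1l1* (ENSDARG00000032929) 49248446 to 49255475 on chromosome 14. *cryba2a* (ENSDARG00000030349) is on chromosome 6 from 13690806 to 13694235 and its paralog *cryba2b* (ENSDARG00000041925) on chromosome 9 from 11830591 to 11836664. *crybb1* (ENSDARG00000068507) and *cryba4* (ENSDARG00000024548) are neighbours on opposite strands of chromosome 10, from 45523364 to 45529531 and from 45544674 to 45552554, with 15143 bp between them.

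*cryaa*, *cryba4*, *crybb1* and *crybb3* carry the symbol in capitals in the table that pairs IDs with names. *cryaba*, *cryba2a* and *cryba2b* appear there without their last letter and were told apart by chromosome. No ID was paired with *cryabb*, so the one widely expressed member was not analysed here under its name, and a comparison of lens-only with widely expressed members could not be made within the set. The small heat shock proteins, the wider family of the alpha crystallins, are described beside the set. They do not stand in for *cryabb*, since where each is expressed was not examined.

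The beta crystallins were the abundant members, and they were higher in the *cora* pools. Each of 6 beta crystallins, *cryba1b*, *cryba1l1*, *cryba2a*, *cryba2b*, *cryba4* and *crybb1*, was at a higher level in every *cora* library than in any control library, with a mean in *cora* hearts between 13.9 and 30.2 times the control mean. *cryaba* and *crybb3* had at most 11 reads in any library, and *cryaa* had 1 to 436 reads. The normalised CPM of all 9 matched members summed to 989, 467 and 607 in control 1, 3 and U and to 7627, 1925, 17201 and 32260 in *cora* 1 to 4. The highest control pool thus lay below the lowest *cora* pool, and the *cora* pools differed more among themselves than the controls did. Bulk RNA does not show which cells of a pool held the crystallin RNA. A larger share of such cells and more crystallin RNA per cell cannot be told apart.

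**Figure D1:**
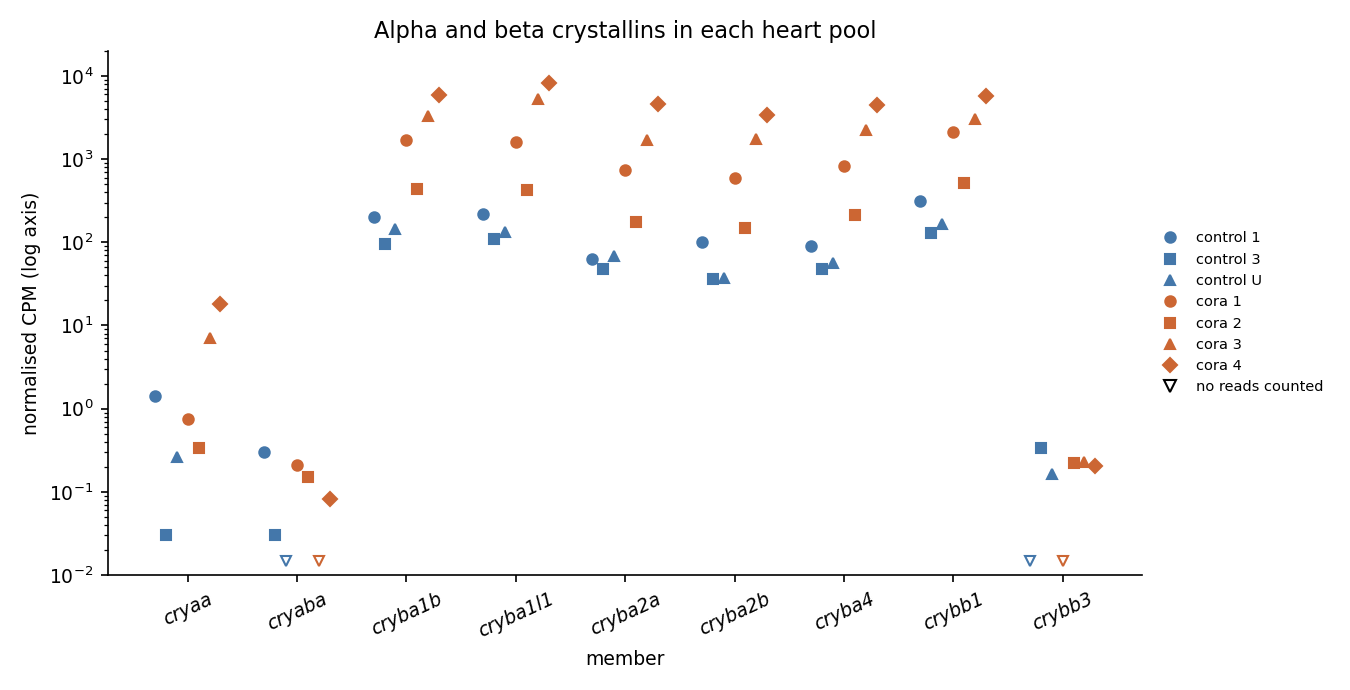
Level of each matched alpha and beta crystallin in each library, in normalised CPM on a log axis, with control pools in blue and *cora* pools in orange and open triangles for libraries with no reads. The 6 abundant beta crystallins lie at 36.6 to 313 normalised CPM in the control pools and at 150.4 to 8174 in the *cora* pools, whereas *cryaba* and *crybb3* stay below 0.4 in every library.

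Among the acidic beta crystallins, *cryba1l1*, an A1-like gene, was at 221, 109.6 and 131 normalised CPM in control 1, 3 and U. In *cora* 1, 2, 3 and 4 it was at 1617, 429.8, 5261 and 8174 normalised CPM. Its lowest *cora* library was 1.95 times its highest control library. The control mean was 154 ± 58.8 (SD, n = 3), the *cora* mean was 3870.5 ± 3529.6 (SD, n = 4), and the fitted log2 fold change was 4.65 (standard error 0.96).

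*cryba1b*, one of the paralogs that encode beta A1-crystallin, was at 199, 94.9 and 145 normalised CPM in the controls, in the order control 1, 3 and U. The *cora* libraries 1 to 4 held 1701, 432, 3274 and 5908 normalised CPM. No control reached the lowest *cora* library, which was 2.17 times the highest control. The fitted log2 fold change of *cryba1b* was 4.27 (standard error 0.83).

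The A2 paralogs, *cryba2a* and *cryba2b*, lie on different chromosomes and shared the order of the *cora* libraries but not that of the controls. For *cryba2a*, control 1, 3 and U held 63.6, 47.8 and 69.1 normalised CPM, and *cora* 1 to 4 held 739, 176, 1686 and 4582. For *cryba2b*, the control values were 102, 36.6 and 37.2 normalised CPM and the *cora* values 599, 150.4, 1741 and 3383. Control 1 was well above the other controls for *cryba2b* but not for *cryba2a*. The groups did not overlap for either paralog, and the gap was narrowest for *cryba2b*, whose lowest *cora* library was 1.48 times its highest control. The log2 fold changes were 4.90 (standard error 1.01) for *cryba2a* and 4.65 (standard error 1.03) for *cryba2b*. Exons of *cryba2a* overlap those of *TMEM198* on the other strand, and strand use in counting is not stated; *TMEM198* was at 42.4 to 49.3 normalised CPM in the controls and at 30.0 to 47.4 in the *cora* pools.

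*cryba4* encodes beta A4-crystallin and is the divergent neighbour of *crybb1*. Its controls 1, 3 and U were at 89.98, 47.2 and 56.4 normalised CPM, and *cora* 1 to 4 were at 835, 215, 2217 and 4516. Even the lowest *cora* pool was 2.39 times the highest control. At 4.91 (standard error 0.98) its log2 fold change was the highest of the members, with *cryba2a* next.

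*crybb1*, the basic beta B1-crystallin that is abundant in lens fibre cells, was at 313, 131 and 167 normalised CPM in control 1, 3 and U and at 2135, 519.7, 3014 and 5678 in *cora* 1 to 4. The groups again did not overlap, with a lowest *cora* library 1.66 times the highest control. Its log2 fold change of 3.80 (standard error 0.76) was the lowest among the 6 abundant members. Its exons overlap a gene on the other strand that had at most 1 read in any library. The other basic member, *crybb3*, had 0, 11 and 5 reads in control 1, 3 and U and 0, 6, 5 and 5 reads in *cora* 1 to 4. It stayed below the filter on low counts, and no fold change is given for it.

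Of the alpha crystallins, *cryaa*, which encodes the alpha A chaperone, was counted in every library but unevenly. Control 1, 3 and U had 33, 1 and 8 reads, and *cora* 1 to 4 had 18, 9, 154 and 436 reads. As normalised CPM these were 1.42, 0.0303 and 0.262 in the controls and 0.754, 0.336, 7.11 and 17.9 in the *cora* pools. The groups overlapped, since control 1 was above *cora* 1 and *cora* 2, and the high *cora* level rested on *cora* 3 and *cora* 4. The log2 fold change was 3.56 (standard error 1.48), and it was 5.47 without control 1 and 2.28 without *cora* 4. *cryaba*, one of the alpha B paralogs, had 7, 1 and 0 reads in control 1, 3 and U and 5, 4, 0 and 2 reads in *cora* 1 to 4. It was too low for the fit, and the groups overlapped.

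An ID without a symbol, ENSDARG00000052447, lies on chromosome 5 from 58990767 to 59000186, 296 bp from *HSPB2*. It is mentioned because *cryabb* is annotated next to *hspb2* in the GRCz12tu assembly, but position alone does not name it, and its exons overlap those of another unnamed gene. It had 0, 16 and 26 reads in control 1, 3 and U and 53, 15, 7 and 11 reads in *cora* 1 to 4. The highest value was in *cora* 1, which was low to intermediate for the abundant beta crystallins, and the groups overlapped. Its log2 fold change was 0.97 (standard error 1.098), and -0.01 without *cora* 1.

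Set against all genes, the fitted changes of the 7 members that passed the filter on low counts were large and of one sign. *cryaba* and *crybb3* did not pass it, and their *cora* means were 0.997 and 0.996 of their control means. *cryaa* passed it but was not fitted when at least 10 reads were required in every library. All 7 had a positive log2 fold change, from 3.56 to 4.91 with a median of 4.65, against a median of -0.03 over the 21632 genes tested. They held ranks 52 to 120 by log2 fold change, and 176 genes (0.814%) had a log2 fold change of 3 or more. With edgeR's quasi-likelihood test and a Benjamini-Hochberg adjusted p under 0.05, 5 of these 7 members were past the threshold, *cryba2b* and *cryaa* being the others, beside 1.11% of all genes called higher and 0.86% called lower. Every *cora* library was above every control library for 6 of the 7, beside 9.01% of all genes tested. Because the set was chosen on this contrast, nothing is read from these counts. The number of members past the threshold was 6 without *cora* 2, 5 without *cora* 4, 3 without control 1, and 0 without control 3, control U, *cora* 1 or *cora* 3.

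The fitted changes of the abundant members varied more when single libraries were left out than under the other scalings, filters and tests tried. With each library left out in turn, the log2 fold change stayed between 3.99 and 5.03 for *cryba1l1*, 3.62 and 4.63 for *cryba1b*, 3.85 and 5.28 for *cryba2a*, and 3.83 and 5.33 for *cryba2b*. It stayed between 4.08 and 5.29 for *cryba4* and between 3.22 and 4.26 for *crybb1*. For each of these 6 genes the lowest value came without *cora* 4, and the median of the lens-only members was then 3.83. Without control 1 that median was 5.02.

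The abundant beta crystallins kept one order of the *cora* pools. For each of the 6, *cora* 2 was lowest, followed by *cora* 1, *cora* 3 and *cora* 4. *cora* 2 was at 2.55 times (*crybb1*) to 3.34 times (*cryba4*) the control mean. *cora* 4 was at 27.9 times (*crybb1*) to 76.1 times (*cryba2a*) the control mean. The spread of each gene between *cora* pools was therefore wide, with a highest over lowest pool of 10.9 for *crybb1* up to 26.0 for *cryba2a*. Among the controls, control 1 was highest for all but *cryba2a*, for which control U was.

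The order of the members can be compared only per kb of exon length. In the controls, *crybb1* was highest at 218 ± 103 normalised CPM per kb (SD, n = 3), then *cryba1l1* at 173 ± 65.98, *cryba4* at 130.3 ± 45.5 and *cryba1b* at 127 ± 45.2. *cryba2b* followed at 36.8 ± 23.5 and *cryba2a* at 35.4 ± 6.51 normalised CPM per kb, and *cryaa*, *crybb3* and *cryaba* had means of 0.403, 0.161 and 0.116. Set against each other within a library, *crybb1* was above *cryba1l1*, *cryba1l1* above *cryba4*, and *cryba1b* above both A2 genes in every control, whereas *cryba4* and *cryba1b*, and the A2 pair, changed places between controls. In *cora* hearts the order began with *cryba1l1* at 4344 ± 3961, followed by *cryba4* at 3931 ± 3852, *crybb1* at 3041 ± 2312 and *cryba1b* at 2449 ± 2042 normalised CPM per kb (SD, n = 4). *cryba2a* was at 1055 ± 1151 and *cryba2b* at 924 ± 907, while *cryaa* had a mean of 4.61. Within a library, *cryba1l1* was above *cryba4*, *crybb1* above *cryba1b*, and *cryba1b* above both A2 genes in every *cora* pool, whereas *cryba4* and *crybb1*, and the A2 pair, changed places between pools.

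Within a library the 6 genes held similar proportions. The standard deviation of log2 level between *cora* pools was 1.46 to 1.99, and it was 0.12 to 0.42 once each gene was set against the mean of the 6 in the same library. *crybb1* departed most. Its share of the summed CPM per kb of the 6 was 32.3%, 28.5% and 28.4% in control 1, 3 and U, 28.3% and 27.2% in *cora* 1 and 2, and 17.4% and 17.7% in *cora* 3 and 4. *cryba4* had a share of 17.51%, 19.4% and 18.1% in the controls and of 20.9%, 21.3%, 24.2% and 26.6% in *cora* 1 to 4. The share of *crybb1* was thus lower, and that of *cryba4* higher, in every *cora* library than in every control, by a margin of only 28.3% against 28.4% for *crybb1*. In *cora* 1, where the summed members were well above every control, the make-up was close to that of the controls, and the shift was seen in the highest pools, *cora* 3 and *cora* 4. The *cryba1l1* share was 22.5% to 31.9% in the *cora* and 23.4% to 25.01% in the control libraries, with overlap.

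**Figure D2:**
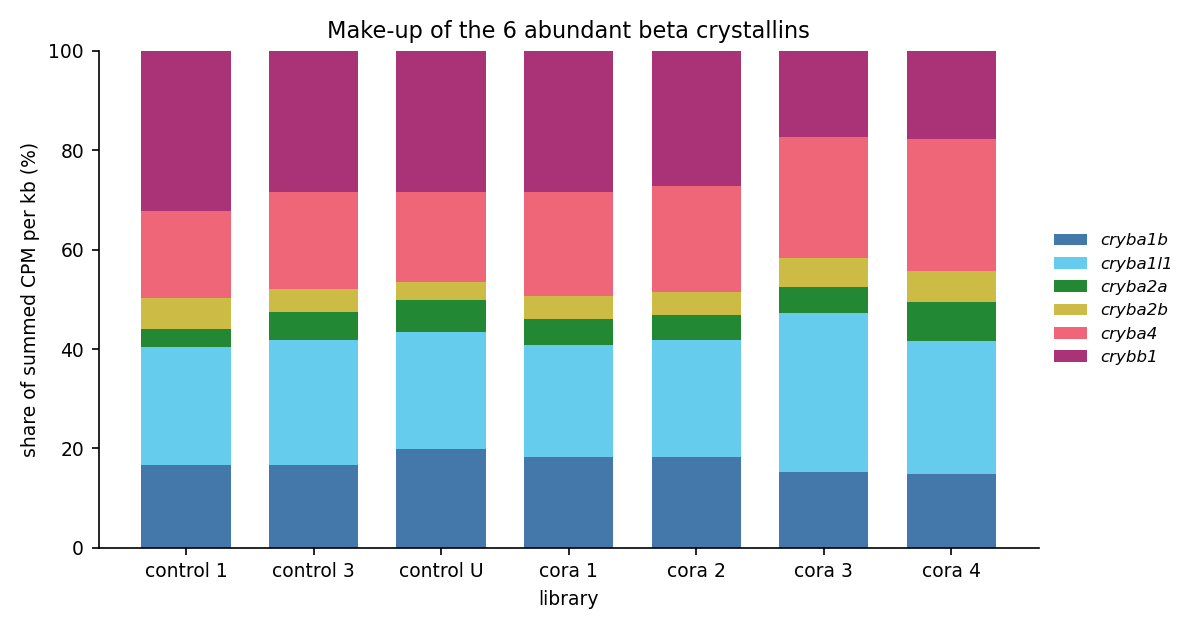
Share of each of the 6 abundant beta crystallins in their summed CPM per kb, in percent, for each library. *crybb1* takes 28.4% to 32.3% in the control pools and 17.4% and 17.7% in *cora* 3 and *cora* 4, and *cryba4* widens from 17.51% to 19.4% in the controls to 26.6% in *cora* 4.

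The other crystallins that were not members were put through the same test. These and the later gene lists were written with earlier results of these data known, so their calls are a description. Of all genes tested, 1.11% were called higher and 0.86% lower. These were 426 genes with edgeR, against 1789 with DESeq2 and 388 with limma voom. Of 6 further beta crystallin genes 5 were tested, with a median log2 fold change of 3.29. Only *crybb1l2* passed (log2 fold change 4.54, standard error 0.90, edgeR adjusted p = 0.0432). The list had 0 genes past the threshold without control 3, control U, *cora* 1 or *cora* 3 and with limma voom, and 4 with DESeq2. *crybb1l1*, 2848 bp from *cryba1l1*, was at 122, 95.2 and 171 normalised CPM in control 1, 3 and U and at 482, 215, 2573 and 1791 in *cora* 1 to 4. It was higher in every *cora* library but did not pass (log2 fold change 3.29, standard error 0.81, edgeR adjusted p = 0.077). *crybgx* had the highest log2 fold change of the list at 5.13 (standard error 1.11, edgeR adjusted p = 0.0537), and *crybb1l3* the lowest at 0.87 (standard error 0.97, edgeR adjusted p = 0.698). *cryba1l2*, which was in no list and is named after its values were seen, overlapped between the groups (log2 fold change 2.91, standard error 1.19, edgeR adjusted p = 0.243).

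Gamma crystallins, the monomeric relatives of the beta family in the dense lens core, were likewise higher in *cora* hearts. Summed over 35 genes they were at 482, 328 and 351 normalised CPM in control 1, 3 and U and at 6033, 1681, 16485 and 46367 in *cora* 1 to 4. The *cora* pools stood in the same order as for the beta crystallins, and the groups did not overlap. Of 28 gamma crystallins tested, 20 rose and 0 fell at an edgeR adjusted p under 0.05, beside 1.11% and 0.86% of all genes. The median log2 fold change was 5.58 (5.55 with a gene undetected in every control set to its bound). Some of the 28, *crygm7* and *crygm2f* among them, passed the filter on low counts only through *cora* libraries. *crygm2f*, with 0, 3 and 2 reads in control 1, 3 and U, is counted in the 20 (edgeR adjusted p = 0.0417). Nothing is read from its call. With at least 10 reads required in every library, 20 of 21 tested were called higher. *crygm3* had the lowest log2 fold change at 2.68 (standard error 1.01, edgeR adjusted p = 0.210). *crygm7* had no reads in any control and a mean of 1.75 normalised CPM in the *cora* pools, at least 16.5-fold higher when 3 reads are allowed in each control library, with an edgeR adjusted p = 0.119. The count of gamma crystallins past the threshold was 6 with limma voom, 26 of 27 with DESeq2, 6 without control 1 and 0 without control 3, control U, *cora* 1 or *cora* 3. Many gamma genes are near-identical copies, and how reads with several matches were counted is not stated, so their sum is safer than their single values.

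The summed gamma level was 0.488, 0.703 and 0.579 of the summed member level in control 1, 3 and U. In *cora* 1 to 4 it was 0.791, 0.873, 0.958 and 1.44 of it. These ratios did not overlap between the groups, and the highest was in *cora* 4, the pool with the highest crystallin level of both kinds.

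Genes of lens fibre cells other than crystallins were also higher in *cora* hearts. The 10 of 14 that matched an ID summed to 41.6, 19.4 and 25.8 normalised CPM in control 1, 3 and U and to 161, 82.3, 598 and 1017 in *cora* 1 to 4. Of these, 3 rose past an edgeR adjusted p of 0.05 and 0 fell, beside 1.11% and 0.86% of all genes. The 3 include *gja8a*, from whose call nothing is read, as given below. The median log2 fold change was 3.90. With at least 10 reads required in every library, 3 of 7 tested were called higher. *bfsp2*, which encodes phakinin of the beaded filament, rose, at a log2 fold change of 5.19 (standard error 0.97, edgeR adjusted p = 0.0395). *dnase1l1l*, a nuclease gene needed in zebrafish for the loss of nuclei from lens fibres, rose by a log2 fold change of 4.32 (standard error 0.79, edgeR adjusted p = 0.0364). *gja8a*, a lens connexin and the highest of the list, had 0, 1 and 0 reads in the controls and 27, 7, 84 and 59 reads in *cora* 1 to 4. It passed the filter on low counts only through the *cora* libraries, so nothing is read from its edgeR adjusted p of 0.0415. *lim2.2*, a lens membrane protein gene, had the lowest log2 fold change of the list at 0.90 (standard error 0.66, edgeR adjusted p = 0.530). The number of fibre genes past the threshold was 0 with limma voom, 7 with DESeq2, 2 without *cora* 4 and 0 without control 3, control U, *cora* 1 or *cora* 3.

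The summed members were 23.8, 24.0 and 23.5 times the summed lens fibre genes in control 1, 3 and U. The same ratio was 47.5, 23.4, 28.8 and 31.7 in *cora* 1 to 4. The controls were thus nearly equal although their crystallin levels differed, *cora* 2 was at their level, and *cora* 1 was the highest. The groups overlapped.

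Transcription factors of the lens had a median log2 fold change of 0.39, with 7 positive and 3 negative, so the median covers fitted changes of both signs. Where else each of them is expressed was not examined. Of these, 3 were higher in every *cora* library than in any control, beside 9.01% of all genes tested. In the other direction 1 was lower in every *cora* library, for which the share of all genes is not given. *foxe3* was among those 3 (log2 fold change 2.93, standard error 0.88, edgeR adjusted p = 0.128). None of the 10 tested passed with edgeR, 2 were higher and 2 lower at an unadjusted p under 0.05, limma voom called 0 and DESeq2 called 2 higher. Over all 21632 genes tested, 3838 were at that unadjusted level in either direction, and DESeq2 called 1789. The highest was *hsf4*, a heat shock factor of lens differentiation, which was higher in every *cora* library (log2 fold change 3.28, standard error 0.88, edgeR adjusted p = 0.0934). The lowest was *prox1a*, a homeobox gene of fibre differentiation that is also expressed elsewhere, which was lower in every *cora* library (log2 fold change -0.84, standard error 0.25, edgeR adjusted p = 0.127). The summed level of the lens transcription factors was 111 to 160 normalised CPM in the controls and 112 to 195 in the *cora* pools, with overlap. In the controls *foxe3* was at 0.0303 to 1.03 and *hsf4* at 0.334 to 1.29 normalised CPM. The sum therefore says little about these genes.

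The small heat shock proteins, relatives of the alpha crystallins, overlapped between the groups in their summed level, at 59.0 to 199 normalised CPM in the controls and 108 to 284 in the *cora* pools. *hspb1* was the largest part of that sum in every library. The 8 matched genes had a median log2 fold change of 0.04, with 4 positive and 4 negative. *hspb2* and *hspb3* among them had at most 49 and 37 reads in any library. The median of 4.65 for the lens-only members covers genes chosen on this contrast and leaves out *cryaba* and *crybb3*. Nothing is therefore read from the difference between these medians. *hspb1* was at 25.5, 143 and 58.9 normalised CPM in control 1, 3 and U and at 234, 180.4, 88.5 and 52.2 in *cora* 1 to 4. Its groups overlapped, and *cora* 4, the highest pool for the crystallins, was its lowest *cora* pool. Only *hspb15* passed with edgeR, and it fell (log2 fold change -2.23, standard error 0.41, edgeR adjusted p = 0.0381). That call was lost when control 3, control U, *cora* 1, *cora* 2 or *cora* 3 was left out. Without control 1, 1 gene of the list was called higher and 1 lower, beside 1207 genes called in all. *hspb9* had the highest log2 fold change at 1.96 (standard error 0.87, edgeR adjusted p = 0.282). It was higher in every *cora* library, narrowly, with a lowest *cora* value of 6.53 normalised CPM against 6.50 in control 1. Control 3 and U were at 0.668 and 0.458.

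**Figure D3:**
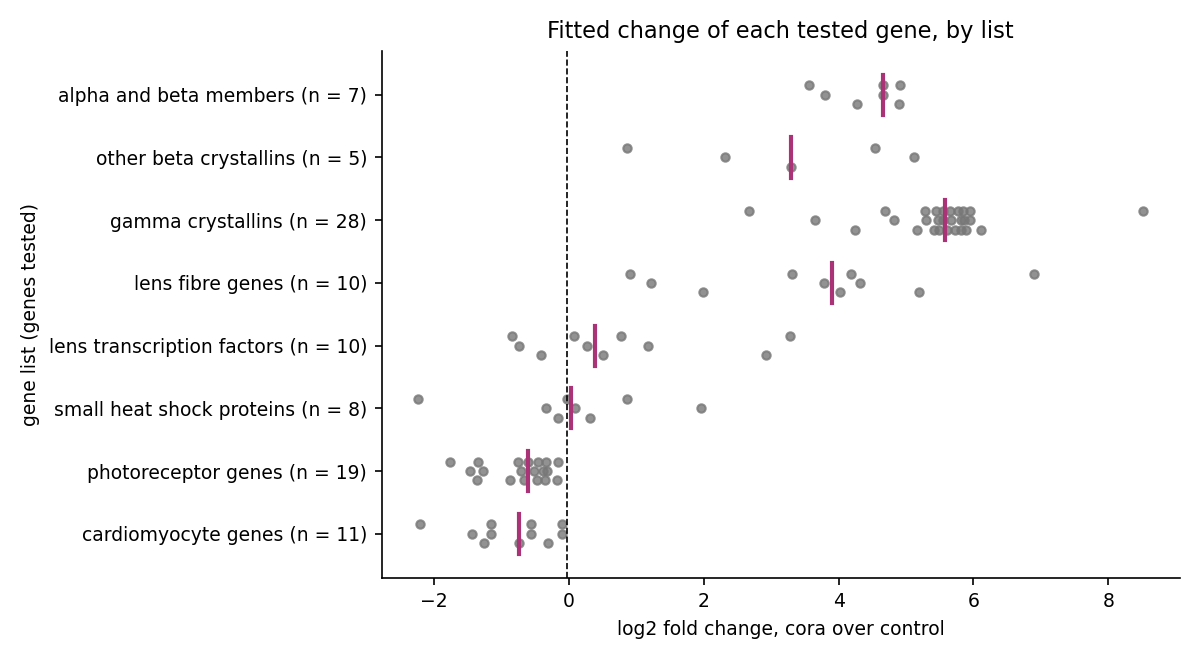
Fitted log2 fold change of *cora* over control for each tested gene (grey points), by list, with the median of each list as a vertical bar and the median of all genes tested, -0.03, as a dashed line. Crystallin and lens fibre lists lie to the right, with medians of 3.29 to 5.58, and the small heat shock proteins have a median of 0.04. The members were chosen on this contrast, and the lists were written with earlier results of these data known.

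Other molecular chaperones, many of them induced by stress, were taken as a further comparison. Of 15 tested, 3 rose and 0 fell with edgeR, beside 1.11% and 0.86% of all genes, with a median log2 fold change of 1.66. The count was 0 without control 3, control U or *cora* 1, 1 without *cora* 2 or *cora* 3, 2 with limma voom and 6 with DESeq2. *hsp70l* was the highest, at 80.3, 5.34 and 4.16 normalised CPM in control 1, 3 and U and 678, 961, 49.3 and 30.0 in *cora* 1 to 4 (log2 fold change 3.84, standard error 1.52, edgeR adjusted p = 0.227). It was highest in *cora* 2 and *cora* 1, the pools with the lowest crystallin levels among the *cora* libraries. *hspe1*, a mitochondrial chaperonin gene, was the lowest of the list, at -0.09 (standard error 0.25, edgeR adjusted p = 0.898).

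Markers of other tissues of the head were present in the pools, and their sums overlapped between the groups. The 21 matched IDs of photoreceptor genes summed to 5221, 3495 and 8127 normalised CPM in control 1, 3 and U and to 1506, 965, 5164 and 3222 in *cora* 1 to 4. *cora* 1, 2 and 4 lay below every control, so the overlap rested on *cora* 3. Without *cora* 3 the median log2 fold change of these genes was -1.26, and 0 passed with edgeR. The defining markers *rho*, *gnat1*, *gnat2* and *opn1sw2* were detected in every library. All 19 photoreceptor genes tested had a negative log2 fold change, with a median of -0.60, from -1.75 for *opn1sw2*, a cone opsin, to -0.17 for *crx*, a photoreceptor transcription factor. None passed with edgeR, 3 were lower at an unadjusted p under 0.05, limma voom called 0 and DESeq2 called 1 lower. Over all 21632 genes tested, 3838 were at that unadjusted level and DESeq2 called 1789, so nothing is read from these counts. The summed members were 0.0746 to 0.190 of the photoreceptor sum in the controls and 2.00 to 10.01 times it in the *cora* pools, with every *cora* library above every control. Because the members were chosen on this contrast, nothing is read from the separation of this ratio.

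Genes of the pigment epithelium and pigment cells summed to 145 to 270.1 normalised CPM in the controls and to 83.1 to 356 in the *cora* pools. Their log2 fold changes ran from -1.56 (*rlbp1a*) to 0.95 (*tyr*). Neuronal genes summed to 2179 to 2943 and to 1692 to 3019 normalised CPM, with log2 fold changes from -0.48 (*syt1a*) to 0.31 (*snap25a*). Cartilage genes summed to 152 to 169 and to 129 to 277 normalised CPM, with log2 fold changes from -0.56 (*sox9a*) to 1.96 (*matn1*). For the pigment and the cartilage sums the overlap rested on *cora* 4, at 356 and 129 normalised CPM. The other *cora* pools lay below every control for the pigment sum and above every control for the cartilage sum. With edgeR 0 genes of these 3 lists passed. At an unadjusted p under 0.05 there were 1, 1 and 2 genes for pigment, neuron and cartilage, limma voom called 0 in each, and DESeq2 called 1, 0 and 1. Over all 21632 genes tested, 3838 were at that unadjusted level and DESeq2 called 1789, so nothing is read from these counts. Without control 1, and likewise without *cora* 4, edgeR called 1 cartilage gene higher. Those fits called 1207 and 635 genes in all.

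Epidermal genes summed to 37751, 10917 and 12027 normalised CPM in control 1, 3 and U and to 21164 to 31741 in the *cora* pools, with log2 fold changes from -1.37 (*krt91*) to 1.97 (*cldni*). Skeletal muscle genes summed to 13003, 3948 and 3407 normalised CPM in control 1, 3 and U and to 5589 to 16150 in the *cora* pools. Their log2 fold changes ran from 0.07 (*myhz2*) to 0.72 (*tnnt3b*). For both lists, control 3 and U lay below every *cora* pool, and the overlap rested on control 1. Control 1 had the highest epidermal and skeletal muscle sums of the controls, the lowest cardiomyocyte sum and the highest member sum. The cardiomyocyte genes ran from a log2 fold change of -2.20 (*tnnc1a*) to -0.10 (*myh7*). With edgeR 0 genes of these 3 lists passed. At an unadjusted p under 0.05 there were 4 epidermal, 0 skeletal muscle and 1 cardiomyocyte gene, beside 3838 of all 21632 genes tested. The calls were 0 by limma voom and 2, 0 and 0 by DESeq2, which called 1789 genes in all. Without control 1, edgeR called 2 skeletal muscle genes and 1 epidermal gene higher. That fit called 1207 genes in all, against 426 with every library. At an unadjusted p under 0.05, 10 skeletal muscle and 5 epidermal genes were then higher and 5 cardiomyocyte genes lower. How many of all genes reached that level without control 1 is not given here. The skeletal muscle median log2 fold change was then 1.33, against 0.42 with all libraries. Without *cora* 4, 1 epidermal gene was called higher, beside 635 genes called in all. With any other library left out, 0 genes of these lists were called. The part of tissue carried over from the head or skin in the level of the members was not tested.

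**Figure D4:**
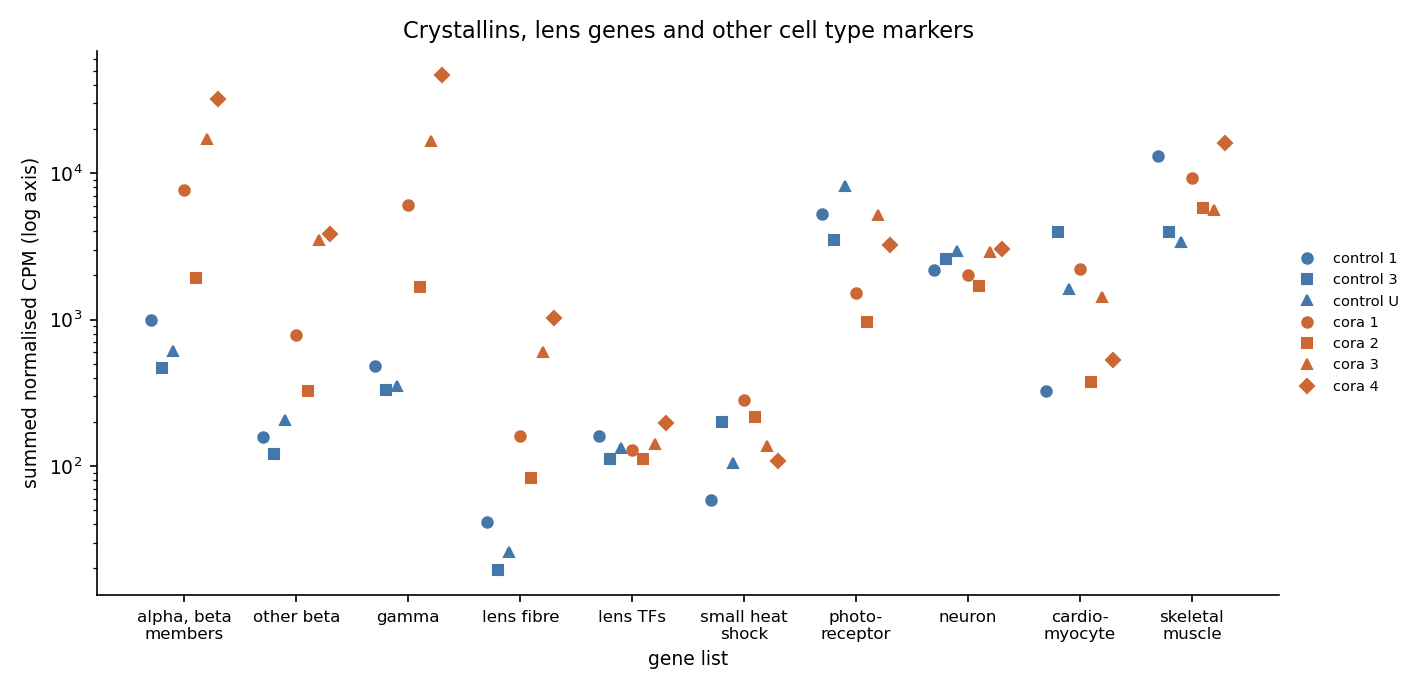
Summed normalised CPM of each gene list in each library, on a log axis, with control pools in blue and *cora* pools in orange. The members, other beta, gamma and lens fibre sums are higher in every *cora* library than in every control, with *cora* 4 highest and *cora* 2 lowest among the *cora* pools. The photoreceptor, neuron, cardiomyocyte and skeletal muscle sums overlap between the groups. For photoreceptor genes the overlap rests on *cora* 3, and *cora* 1, 2 and 4 lie below every control. For skeletal muscle the overlap rests on control 1, at 13003 normalised CPM. Control 3 and U, at 3948 and 3407, lie below every *cora* pool.

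The annotated neighbours of the members that were not crystallins had log2 fold changes at or below 0.32 where they could be tested. *ACADS*, a mitochondrial acyl-CoA dehydrogenase gene 3559 bp from *crybb1*, was at 30.7 to 39.4 normalised CPM in the controls and at 11.4 to 19.9 in the *cora* pools (log2 fold change -1.09, standard error 0.24, edgeR adjusted p = 0.0545). *CBS*, a gene of cysteine synthesis 3319 bp from *cryaa*, was at 24.6 to 70.6 normalised CPM in the controls and at 4.61 to 21.3 in the *cora* pools (log2 fold change -2.10, standard error 0.52, edgeR adjusted p = 0.077). *unc119a2*, 8197 bp from *cryba1b*, had a log2 fold change of -0.42 (standard error 0.49, edgeR adjusted p = 0.709). Beside *cryaba*, *ARCN1* was at 0.32 (standard error 0.22, edgeR adjusted p = 0.495) and *DIXDC1* at -0.01 (standard error 0.26, edgeR adjusted p = 0.990). *HSPB2*, beside the unnamed ID, had a log2 fold change of 0.10 (standard error 0.82, edgeR adjusted p = 0.970). *HSF2BP*, *CPD* and 3 microRNA genes near members had too few reads to be tested.

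The genes that followed the lens-only members most closely were picked by Pearson's r of log2 CPM with the mean of the 7 tested members over the 7 libraries, among 11078 genes that were not crystallins. They were *PDE12* (r = 0.988), *EIF3J* (r = 0.984), *MFHAS1* (r = 0.982), *MIP* (r = 0.982) and *endou2* (r = 0.980). These values describe the libraries and were selected as the highest. *MIP* encodes the aquaporin of lens fibre membranes and was at 27.5, 7.65 and 10.8 normalised CPM in control 1, 3 and U and at 60.9, 27.7, 273 and 251 in *cora* 1 to 4. *endou2* was at 1.38, 0.819 and 1.83 normalised CPM in the controls and at 10.3, 4.04, 68.7 and 78.5 in the *cora* pools. *EIF3J*, a subunit of a translation initiation factor, was at 45.5 to 51.5 and 70.4 to 248 normalised CPM. *PDE12* and *MFHAS1* followed the order with small differences, at log2 fold changes of 0.44 and 0.40. None of the 5 passed an edgeR adjusted p of 0.05, the lowest being 0.0538 for *endou2*.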

How the data were processed

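RNA sequencing of 4 *cora* and 3 control heart pools was analysed. The authors deposited for each library a table of whole-number read counts per Ensembl gene on Zv9, with CPM, RPKM and the exon length, an other value deposited in bp. The CPM and RPKM deposited by the authors were the count relative to the library's total and the same per kb of exon. The submitters' processing notes name STAR 2.0.4b, featureCounts 1.4.5 of Subread, edgeR and limma, without their settings. 0 value columns were left unassigned.

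Counts were fitted in R 4.3.3 with edgeR 4.0.16 (TMM, filterByExpr, glmQLFit, glmQLFTest, prior count 0.125) over 21632 genes with Benjamini-Hochberg adjustment, without covariates. P-values weigh the difference between the groups against the spread between these pools, which are not stated to come from separate crosses. Alternatives used limma 3.58.1, DESeq2 1.42.0, other scalings and filters, and each library left out. The biological coefficient of variation was 0.427, so the spread between pools rather than depth set the precision. Tested on simulated data drawn for 21179 genes of *cora* against control, the fit recovered 101 of 200 4-fold changes with 4 false calls. Normalised CPM used TMM factors of 0.839 to 1.09.

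The members and gene lists were chosen with earlier results of these data known. Genes named are all members, the lowest and highest tested gene of each list, the 5 most like the lens-only members at a mean log2 CPM of at least 2, neighbours within 20000 bp and *taf5*. *crybb1l2*, *crybb1l1*, *crygm2f*, *bfsp2*, *dnase1l1l*, *foxe3* and *hspb1* were named after their values were seen. Symbols came from an Ensembl table (65.0% of IDs) and, for position only, GRCz12tu. No sequences were read.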

Additional observations from a re-analysis of the deposited data

Results flagged for a closer look

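Of 57 groups of 4 libraries examined, 3 had a *cora* library far from the other 3 by Dixon's ratio of the gap to the range above its 95% limit; chance flags about 1 in 20 groups. For *crybb3* the ratio was 0.889, because *cora* 1 had no reads while the other *cora* libraries had 5 or 6. For ENSDARG00000052447 it was 0.875, with *cora* 1 at 2.22 normalised CPM and the others from 0.323. For the summed pigment epithelium and pigment cell genes it was 0.871, with *cora* 4 at 356 normalised CPM and the lowest *cora* library at 83.1. Groups of 3 control libraries were not examined.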

How the results depend on the processing

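The median log2 fold change of the lens-only members was 4.65 and stayed between 3.83 and 5.03 with each library left out. The 111 values of single members under the alternatives were all positive and moved by less than the spread between replicates. That spread was wide, with a pooled SD of 1.52 in log2 for the median of the members, so this check could miss large shifts. *cryaa*, for example, ran from 2.28 to 5.47 with single libraries left out. Genes past the threshold numbered 426, with 34 to 1207 when each library was left out and 1789 with DESeq2's Wald test. Members past it numbered 5, with 0 to 6 when each library was left out and 3 with limma voom. The replicate block, in a fit of the 4 libraries numbered 1 and 3, left 0 genes past the threshold, with 0 members and 0 genes of any list among them, and 2101 of 21404 genes at an unadjusted p under 0.05, with a median for the lens-only members of 4.10. The numbers are not stated to pair pools, and the correlations of same-numbered deviations were 0.0576 and 0.0316. The cause of these changes was not tested. Values of *cryabb*, the genes most like it and promoter motifs were not run, since no ID carried the symbol and no sequence was used here. *cryaba* and *crybb3* are limited by depth, 3 reads being 0.0910 to 0.139 normalised CPM.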
